A study of Mus musculus with 21 samples.

Results

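The kidney mRNA levels of 10 genes of ATP and adenosine signalling, namely receptors, nucleotide-degrading enzymes and a transporter, were examined in apoE KO mice fed an adenine diet. The genes were taken by symbol from a list and made up 10 of the 20634 genes measured in all the mice analysed. They were the adenosine receptors Adora1, Adora2a and Adora2b, the ATP-gated channels P2rx4 and P2rx7, the nucleotide-degrading enzymes Entpd1, Entpd5, Enpp1 and Nt5e, and the nucleoside transporter Slc29a1. The mice were 4-week-old females, all lacking apoE in every cell, on a C57BL/6J background, and all were fed chow for 14 weeks, to an age of 18 weeks. The Con group (n = 5) received chow alone, the Ade group (n = 6) received chow with adenine, and the Ade + IMC group (n = 6) received chow with adenine and iodomethylcholine (IMC, an inhibitor of the bacterial enzyme that makes trimethylamine). The study asked whether blocking this enzyme protects mice from the kidney disease that adenine causes.

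ATP released by stressed or dying cells acts as a danger signal on P2 receptors, which are ATP-gated channels (P2X) or G protein-coupled receptors (P2Y). Enzymes on the cell surface then strip its phosphates, with CD39 (Entpd1) making AMP and CD73 (Nt5e) making adenosine from AMP, and adenosine acts on its own G protein-coupled receptors until nucleoside transporters carry it into cells. In the kidney, adenosine acting on the A1 receptor constricts the afferent arteriole in tubuloglomerular feedback, CD73 is found on proximal tubule and interstitial cells, and P2X7 is best known from macrophages, where it drives inflammasome activation.

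RNA came from whole kidney. Library totals lay between 7716126 and 11680809 counts for Con, between 5444833 and 7673215 for Ade and between 5728589 and 8305968 for Ade + IMC. Levels are given as CPM, the count of a gene over the library total after TMM scaling, so that it differs from the count over the totals above, and on this scale 3 counts came to at most 0.501 CPM in any mouse. Havcr1, an injury marker of the proximal tubule, had 0.135 to 0.915 CPM in Con mice, while the Ade mice had 74.3 to 267 CPM and those given IMC 21.8 to 218 CPM. The proximal tubule markers that define the tissue were present in all 3 groups, with a summed level per mouse of 9779 to 14898 CPM (Con), 1393 to 5663 CPM (Ade) and 2316 to 4694 CPM (Ade + IMC), and 6 of 6 markers were lower in both adenine-fed groups than in the Con group. Macrophage markers summed to 202 to 242 CPM (Con), 1332 to 2157 CPM (Ade) and 1199 to 2012 CPM (Ade + IMC), and 8 of 8 were higher in both. None of the markers measured was at 0 throughout a group. Adipocyte markers varied widely between mice, with sums of 0 to 11.3 CPM (Con), 0 to 124 CPM (Ade) and 0.276 to 457 CPM (Ade + IMC). Their part in the levels of the 10 genes was not tested. The library of Ade + IMC 4 stood apart from the others of its group, with a chi-square per degree of freedom over gene counts of 44.3 to 75.4 against each of them, while the other pairs of the group gave 9.72 to 33.8. Pairs of the Ade group gave 10.4 to 50.1, so libraries of that group also differed, most between Ade 2 and Ade 4. Some results of the Ade + IMC group, namely counts of genes that passed and log2 values, are also given without Ade + IMC 4. Ratios, the order of levels and correlations include it. In RNA from a whole kidney, a change in the number of cells of a type and a change in RNA per cell cannot be told apart.

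Promoters were read from RefSeq (GRCm38.p6) for 9 of the 10 genes, with no entry for Adora2a. Where a gene had several entries (P2rx7 2, Entpd1 2, Adora1 2 and Slc29a1 8), only the one nearest the GENCODE start of the gene was used, and the others were not searched. The 250 bases before the start are printed for the genes with the largest rise (P2rx7) and fall (Entpd5) in the Ade group, for the ectonucleotidase that rose (Entpd1), and for the adenosine receptor whose levels differed without overlap between the Ade and Ade + IMC groups (Adora2b). They lie at chr5:122643677-122643926 (P2rx7, plus strand), chr12:84409030-84409279 (Entpd5, minus strand), chr19:40612116-40612365 (Entpd1, plus strand) and chr11:62248734-62248983 (Adora2b, plus strand). Each is written 5′ to 3′ on the strand of its gene, and capitals mark matches on either strand to GGGCGG (the Sp1 GC box) or ACGTG (the core of the hypoxia response element).

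P2rx7: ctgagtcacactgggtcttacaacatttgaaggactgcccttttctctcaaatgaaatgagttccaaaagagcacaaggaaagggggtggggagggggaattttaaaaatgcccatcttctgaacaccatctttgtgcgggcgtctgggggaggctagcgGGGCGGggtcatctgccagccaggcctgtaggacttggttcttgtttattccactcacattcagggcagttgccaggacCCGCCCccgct
Entpd1: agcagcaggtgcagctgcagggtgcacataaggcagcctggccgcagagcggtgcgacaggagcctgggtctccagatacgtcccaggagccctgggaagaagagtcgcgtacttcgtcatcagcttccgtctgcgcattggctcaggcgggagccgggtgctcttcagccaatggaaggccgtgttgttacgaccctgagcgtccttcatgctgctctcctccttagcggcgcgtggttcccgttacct
Entpd5: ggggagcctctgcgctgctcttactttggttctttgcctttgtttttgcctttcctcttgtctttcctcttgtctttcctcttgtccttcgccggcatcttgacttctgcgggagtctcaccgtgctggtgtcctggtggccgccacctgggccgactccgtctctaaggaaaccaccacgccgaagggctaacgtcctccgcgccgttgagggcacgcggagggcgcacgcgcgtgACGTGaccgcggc
Adora2b: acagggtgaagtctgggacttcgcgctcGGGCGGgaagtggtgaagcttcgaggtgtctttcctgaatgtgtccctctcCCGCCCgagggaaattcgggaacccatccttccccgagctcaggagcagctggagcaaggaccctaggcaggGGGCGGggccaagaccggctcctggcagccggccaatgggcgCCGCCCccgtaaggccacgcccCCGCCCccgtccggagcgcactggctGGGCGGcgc

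Adora2b held 6 GC boxes that did not overlap one another, P2rx7 held 2, and the window used for Entpd1 and that of Entpd5 held none. Over the 9 genes, 5 had a GC box (Adora1, Adora2b, P2rx7, Enpp1 and Nt5e), against 32.7% of all 32851 promoters of this length. The core ACGTG was present in 3 (Adora1, Entpd5 and Enpp1), against 16.6% of all promoters. In Entpd5 it began 13 bases before the start. The cAMP response element TGACGTCA was in none of the 9 and in 1.55% of all promoters, and the NF-κB consensus was in Enpp1 alone and in 7.25% of all promoters. These matches describe the letters of the window.

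Per kilobase of exon, Entpd5 was the most abundant of the 10 transcripts in every group. In the Con group its level was 119.6 ± 6.70 CPM per kb (SD, n = 5), above the other genes without overlap. Slc29a1 (11.1 ± 2.03 CPM per kb), P2rx4 (10.2 ± 1.29), Nt5e (8.99 ± 1.94) and Enpp1 (8.49 ± 1.14) followed, each overlapping its neighbour in the order. Entpd1 (3.60 ± 0.364 CPM per kb) lay below these without overlap, and Adora1 (2.31 ± 1.57), Adora2b (2.22 ± 0.403), Adora2a (1.44 ± 0.525) and P2rx7 (1.13 ± 0.136) were the lowest, each of these overlapping the next from Entpd1 down. In the Ade group Entpd5 fell to 43.7 ± 11.1 CPM per kb (n = 6) and was still above the others without overlap. P2rx7 stood at 6.26 ± 1.76 CPM per kb there, overlapping Nt5e (6.67 ± 1.34) and Enpp1 (6.11 ± 0.867), and the 3 adenosine receptors were now the lowest of the 10. The order in the Ade + IMC group again began with Entpd5 (52.4 ± 11.6 CPM per kb), and its lowest 4 genes, P2rx7, Adora2a, Adora1 and Adora2b, each overlapped the next.

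**Figure D1:**
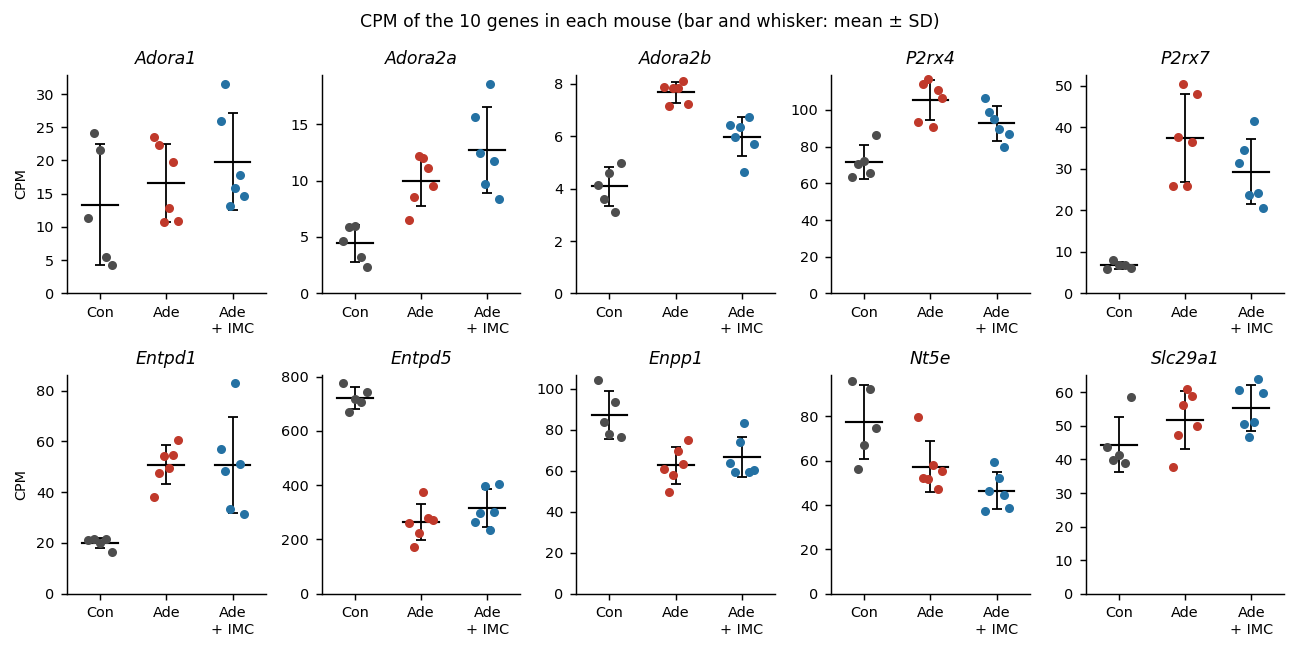
Each point is the CPM (vertical axis, starting at 0) of 1 mouse for the gene named above the panel, with the mean as a bar and the SD as a whisker (Con n = 5, Ade n = 6, Ade + IMC n = 6). The Ade mice sit above every Con mouse for Adora2a, Adora2b, P2rx4, P2rx7 and Entpd1 and below every Con mouse for Entpd5 and Enpp1, and for Adora2b the Ade + IMC mice (4.65 to 6.73 CPM) sit below every Ade mouse (7.16 to 8.11 CPM).

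The first comparison asked which of these genes differed between kidneys of adenine-fed and chow-fed mice. Of the 10 genes, 5 were higher in the Ade group (Adora2a, Adora2b, P2rx4, P2rx7 and Entpd1), 3 were lower (Entpd5, Enpp1 and Nt5e) and Adora1 and Slc29a1 did not pass the test, which was edgeR's quasi-likelihood test with a Benjamini-Hochberg adjusted p below 0.1. Among all 14612 genes tested, 35.1% were higher and 32.2% lower, so that changed genes were common in these kidneys. For 7 of the 10, 5 higher and 2 lower, the CPM ranges of the Ade and Con mice did not overlap, which held for 43.0% of all genes tested. The median log2 fold change of the 10 genes was 0.47 and their median absolute log2 fold change 0.75, beside 0.02 and 0.42 over all genes.

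Among the adenosine receptors, both Gs-coupled members, which raise cAMP, were higher in the Ade group. Adora2b, the low-affinity receptor, was at 4.14, 3.61, 4.60, 3.12 and 4.96 CPM in the Con mice. In the Ade mice it ranged from 7.16 to 8.11 CPM with a median of 7.85. Every Ade mouse was above every Con mouse. The log2 fold change was 0.93 ± 0.15 (SE, edgeR adjusted p = 0.000117). Adora2a, the high-affinity receptor found on leukocytes and vessels, was at 4.64, 5.92, 5.96, 3.25 and 2.35 CPM in the Con mice. The Ade mice ranged from 6.48 to 12.2 CPM with a median of 10.3. They lay above the Con mice without overlap, the closest values being 5.96 and 6.48 CPM, and the log2 fold change was 1.19 ± 0.25 (edgeR adjusted p = 0.000893). The macrophage markers (8 of 8) and the T cell and B cell markers, whose levels are given with Entpd1, were higher in the same mice, and their part in the rise of Adora2a and Adora2b was not tested.

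Adora1, the Gi-coupled receptor of tubuloglomerular feedback, was at 11.3, 24.1, 21.5, 5.46 and 4.31 CPM in the Con mice. The Ade mice ranged from 10.7 to 23.5 CPM with a median of 16.3. The Con mice spread widely, with Con 2 above all Ade mice and Con 4 and Con 5 below all of them, and the log2 fold change of 0.36 ± 0.40 did not pass (edgeR adjusted p = 0.459). It moved with single Con mice, to 0.13 without Con 5, 0.16 without Con 4, 0.60 without Con 3 and 0.67 without Con 2, and did not pass in any of these. Adora1 shares 1162 exonic bases with Mybph on the opposite strand, and Mybph itself had 0 to 5 counts in each of the 17 mice. The A3 receptor Adora3, which is not among the 10 genes, was below the filter on low counts and was not tested. Con mice had 1 to 4 counts of it (0.135 to 0.523 CPM), Ade mice 5 to 10 (0.676 to 1.34 CPM) and Ade + IMC mice 7 to 14 (0.968 to 2.004 CPM).

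Of the ATP-gated channels, P2rx7 had the largest rise of the 10 genes. It was at 5.85, 7.94, 6.91, 6.88 and 6.14 CPM in the Con mice. In the Ade mice it ranged from 25.8 to 50.5 CPM with a median of 37.1. Even the lowest Ade mouse was far above the highest Con mouse, and the groups differed by a log2 fold change of 2.50 ± 0.20, or 5.64-fold (95% confidence interval of the log2 value 2.06 to 2.93, edgeR adjusted p = 3.19e-07). P2rx4, whose gene lies 16111 bases downstream of P2rx7 on chromosome 5 and whose channel is found in epithelial cells, vessels and macrophages, was at 63.3, 70.3, 71.9, 65.9 and 86.6 CPM in the Con mice. The Ade mice ranged from 90.8 to 117 CPM with a median of 109. They lay above the Con mice without overlap, although Con 5 came close to the lowest of them, and the log2 fold change was 0.58 ± 0.10 (edgeR adjusted p = 0.000250). Within each mouse, the ratio of P2rx7 to P2rx4 levels per kb was 0.112 ± 0.0186 in the Con group (SD, n = 5) and 0.413 ± 0.0873 in the Ade group (n = 6), and the highest Con mouse (0.133) was below the lowest Ade mouse (0.324). This ratio is given as a description. The macrophage markers, whose summed levels are given above, rose in the same mice, and their part in the rise of P2rx7, P2rx4 and Entpd1 was not tested.

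The ectonucleotidases moved in both directions. Entpd1 (CD39, which takes ATP and ADP to AMP and is found on leukocytes and endothelium) was at 20.99, 21.4, 20.04, 21.4 and 16.6 CPM in the Con mice. In the Ade mice it ranged from 38.3 to 60.5 CPM with a median of 52.0. All Ade mice were well above all Con mice, with a log2 fold change of 1.36 ± 0.12, or 2.57-fold (edgeR adjusted p = 5.60e-07). In the same comparison 6 of 6 T cell markers, 3 of 3 B cell markers and 5 of 5 fibroblast and pericyte markers were higher, with summed levels of 8.80 to 14.8, 0.523 to 2.302 and 200.2 to 255 CPM in Con mice against 64.2 to 204, 3.86 to 88.7 and 1115 to 1455 CPM in Ade mice. Of the endothelial markers 0 of 6 were higher and 3 lower, with a summed level of 453 to 697 CPM in Con mice against 313 to 590 CPM in Ade mice, and against the Con group 2 were higher and 1 lower in the Ade + IMC mice. The part of these cell types in the Entpd1 level was not tested.

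Nt5e (CD73, which takes AMP to adenosine) was at 95.9, 56.3, 67.3, 92.2 and 75.0 CPM in the Con mice. The Ade mice ranged from 47.0 to 79.7 CPM with a median of 53.8. The groups overlapped, since Con 2 was at 56.3 CPM and Ade 1 at 79.7 CPM, while 4 of the 6 Ade mice were below every Con mouse, and the log2 fold change was -0.41 ± 0.15 (edgeR adjusted p = 0.0316). Enpp1, which splits ATP into AMP and pyrophosphate, was at 104, 83.8, 77.7, 93.6 and 76.3 CPM in the Con mice. The Ade mice ranged from 49.7 to 75.0 CPM with a median of 61.9. Every Ade mouse was below every Con mouse, but only by a small gap, and the log2 fold change was -0.45 ± 0.11 (edgeR adjusted p = 0.00273).

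Entpd5, a relative of CD39 that acts in the endoplasmic reticulum on UDP and GDP, had the largest fall. It was at 777, 669.6, 716, 705 and 744 CPM in the Con mice. In the Ade mice it ranged from 173 to 376 CPM with a median of 266. The highest Ade mouse, Ade 4, was far below the lowest Con mouse, with a log2 fold change of -1.43 ± 0.15, or 2.69-fold lower (edgeR adjusted p = 4.28e-06). The summed proximal tubule markers, given above, were lower in the same mice, with the highest Ade value also in Ade 4. Of the collecting duct markers 3 of 3 were lower, with a summed level of 295 to 514 CPM in Con mice against 133 to 227 CPM in Ade mice, and of those of the thick ascending limb and distal tubule 2 of 3, with 6901 to 11047 CPM against 3320 to 7114 CPM. The part of these cell types in the fall of Entpd5, Enpp1 and Nt5e was not tested.

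Within each mouse, the ratio of Nt5e to Entpd1 levels per kb was 2.51 ± 0.551 in the Con group, 0.766 ± 0.296 in the Ade group and 0.664 ± 0.283 in the Ade + IMC group (SD). The lowest Con mouse was at 1.71 and the highest adenine-fed mice were at 1.35 (Ade) and 1.16 (Ade + IMC), so that Nt5e exceeded Entpd1 per kb in all Con mice and in 1 mouse of each adenine-fed group. The nucleoside transporter Slc29a1 (ENT1, which equilibrates adenosine across the membrane) was at 43.6, 39.7, 41.4, 38.8 and 58.7 CPM in the Con mice. The Ade mice ranged from 37.9 to 61.0 CPM with a median of 53.0. The ranges overlapped, with Con 5 the highest Con mouse and Ade 1 below every Con mouse, and the log2 fold change of 0.24 ± 0.14 did not pass (edgeR adjusted p = 0.137). Without Con 5 it was 0.36 (adjusted p = 0.0217) and without Ade 1 it was 0.32 (adjusted p = 0.0324), so for Slc29a1 the call depended on single mice. Slc29a1 also shares 275 exonic bases with the antisense gene Gm17080, which had 1 to 14 counts a mouse.

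**Figure D2:**
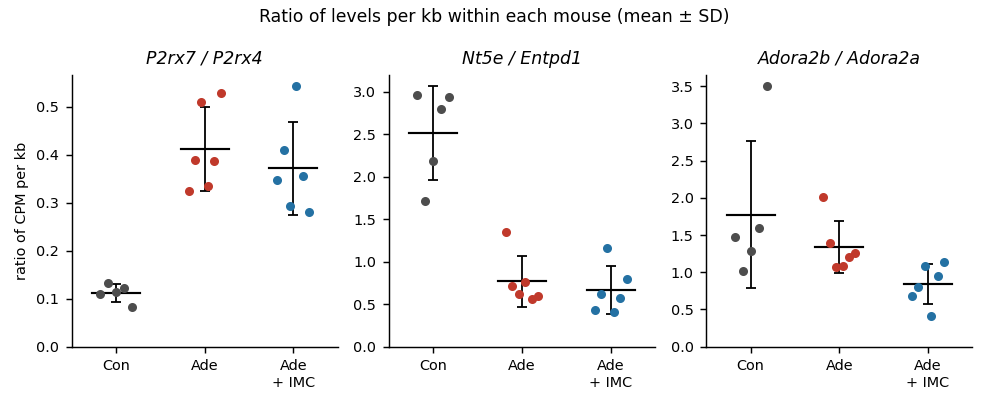
Each point is the ratio, within 1 mouse, of the CPM per kb of exon of the 2 genes named above the panel (vertical axis, starting at 0), with the mean as a bar and the SD as a whisker (Con n = 5, Ade n = 6, Ade + IMC n = 6). The P2rx7 to P2rx4 ratio is at most 0.133 in the Con mice and at least 0.281 in all adenine-fed mice, the Nt5e to Entpd1 ratio is at least 1.71 in the Con mice and at most 1.35 in the others, and the Adora2b to Adora2a ratio overlaps between all groups.

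The mouse numbers begin with 2, 3 or 4, and the labels do not say what this digit means. Within each of these 3 sets, the Ade mice differed from the Con mice in the same direction as in the whole for all 8 genes that passed. The sets are small, with 1 Ade mouse in the second and 1 Con mouse in the third. For P2rx7 the differences in mean log2 CPM were 2.15, 2.83 and 2.49, and for Entpd5 they were -1.76, -1.65 and -1.29. With the digit as a block in the edgeR fit, 8 of the 10 genes passed as before, with Nt5e nearest the threshold (edgeR adjusted p = 0.0629). With no block, Nt5e also passed narrowly without Con 1 (edgeR adjusted p = 0.0933) or Con 4 (0.0855).

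The second comparison asked whether IMC altered these genes in mice fed adenine. It was made on the normalized counts (counts divided by a size factor of each library) with limma, and 0 of the 10 genes passed, with limma adjusted p-values of 0.706 to 0.957. Among all 14696 genes tested, 0.0% passed, 3.37% were higher and 3.35% lower at an unadjusted p below 0.05, and DESeq2 on recovered reads called 22 higher and 16 lower, none of them among the 10. At that unadjusted threshold, 3 of the 10 genes were lower in the Ade + IMC group (Adora2b, P2rx4 and Nt5e) and 0 were higher. The paper's own DESeq2 comparison of these groups, at an adjusted p below 0.1, called many more genes in each direction. Why the numbers of calls differ was not examined.

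Adora2b had 58.6, 53.9, 59.2, 58.4, 59.9 and 53.9 normalized counts in the Ade mice. In the Ade + IMC mice it had 48.2, 44.3, 47.0, 34.9, 49.2 and 41.8 normalized counts. All 6 Ade + IMC mice were below all 6 Ade mice, and of all genes tested 13, or 0.0885%, were lower without overlap in this way. The log2 difference was -0.37 ± 0.11 (SE, 95% confidence interval -0.62 to -0.13), with a limma p of 0.00537 and an adjusted p of 0.706, so the difference did not hold after adjustment over all genes. Leaving out each mouse in turn gave differences of -0.41 to -0.31. Within the sets of mice with first digit 2, 3 and 4 the differences were -0.28, -0.53 and -0.33. These values rest on 39 to 65 counts a mouse.

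P2rx4 ranged from 675.6 to 879 normalized counts in the Ade mice (median 807) and from 585 to 797 in the Ade + IMC mice (median 687). The ranges overlapped, with 3 of the 6 Ade + IMC mice below every Ade mouse, and the log2 difference was -0.20 ± 0.09 (limma adjusted p = 0.739). Nt5e ranged from 347 to 593 normalized counts in the Ade mice (median 403) and from 279 to 439.6 in the Ade + IMC mice (median 336). Here 4 of the 6 Ade + IMC mice were below every Ade mouse and Ade 1 was above all others, and the log2 difference was -0.31 ± 0.14 (limma adjusted p = 0.723). Within the sets with first digit 2, 3 and 4 the Nt5e differences were -0.63, 0.08 and -0.38, those of P2rx4 were -0.02, -0.36 and -0.32, and those of P2rx7 were 0.07, -0.70 and -0.69. P2rx7 had a difference of -0.36 ± 0.21 (limma adjusted p = 0.763), with 192 to 380.1 normalized counts in the Ade mice against 151 to 311 with IMC. Its log2 difference had a 95% confidence interval from -0.81 to 0.09, which holds 0.

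The other 6 genes had log2 differences from -0.08 (Entpd1) to 0.32 (Adora2a). Entpd1 varied widely among the Ade + IMC mice, from 231 to 623 normalized counts (median 366), with Ade + IMC 4 above and Ade + IMC 3 and 6 below every Ade mouse. That mouse, Ade + IMC 4, also had the highest summed T cell markers (300 CPM, against 61.8 to 120 CPM in the other Ade + IMC mice) and B cell markers (206 CPM, against 2.72 to 39.5 CPM), and within its group the highest macrophage (2012 CPM) and fibroblast and pericyte sums (1573 CPM) and the lowest proximal tubule sum (2316 CPM). Their part in its Entpd1 level was not tested. Without Ade + IMC 4, whose library stood apart, 0 of the 10 genes passed in limma as before, and the log2 differences were -0.24 for Entpd1, -0.31 for Adora2b, -0.47 for P2rx7, -0.19 for P2rx4 and -0.35 for Nt5e (limma adjusted p of 0.448 to 0.578). For the other 5 genes they ranged from 0.01 to 0.34. Entpd5 was at 1762 to 2961 normalized counts in the Ade + IMC mice and 1305 to 2796 in the Ade mice, and its log2 difference of 0.26 ± 0.17 did not pass (limma adjusted p = 0.791). The Adora2b to Adora2a ratio per kb was 1.34 ± 0.354 in the Ade group and 0.846 ± 0.272 in the Ade + IMC group, with overlapping ranges.

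**Figure D3:**
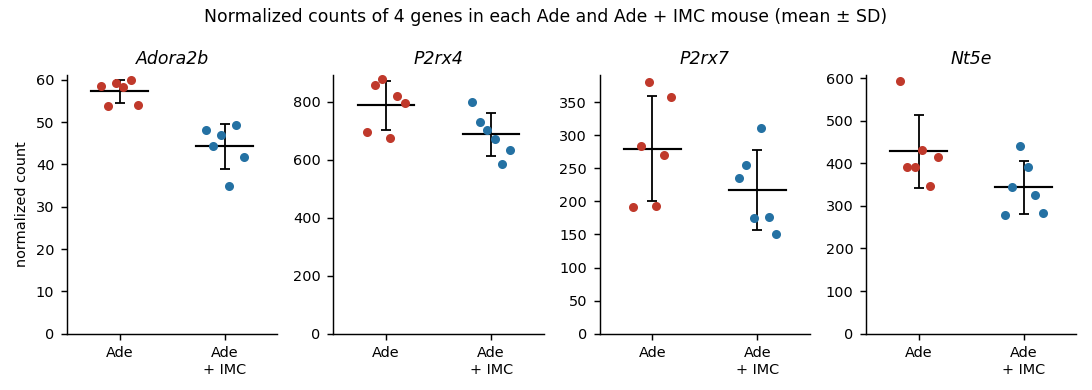
Each point is the normalized count (vertical axis, starting at 0) of 1 Ade or Ade + IMC mouse for the gene named above the panel, with the mean as a bar and the SD as a whisker (n = 6 a group). Adora2b separates the groups (53.9 to 59.9 against 34.9 to 49.2), while P2rx4, P2rx7 and Nt5e overlap.

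The third comparison set the Ade + IMC mice against the Con mice, by edgeR on reads recovered from the normalized counts, and asked how far the adenine-fed mice given IMC were from chow-fed mice. It shares the Con mice with the first comparison, so the values are given side by side. In it, 6 of the 10 genes were higher and 3 were lower, with Adora1 not passing, beside 30.9% of all 14578 genes higher and 32.3% lower. For 4 genes, Adora2a, P2rx7 and Entpd1 higher and Entpd5 lower, the CPM ranges did not overlap, as for 37.0% of all genes tested. Without Ade + IMC 4, 6 of the 10 were again higher and 3 lower, with log2 fold changes of 1.97 for P2rx7, 1.11 for Entpd1, 0.58 for Adora2b and -1.15 for Entpd5.

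P2rx7 ranged from 20.7 to 41.4 CPM in the Ade + IMC mice (median 27.8), with a log2 fold change against the Con group of 2.10 ± 0.19 (edgeR adjusted p = 2.32e-06), beside 2.50 in the Ade group. Adora2b ranged from 4.65 to 6.73 CPM (median 6.17), with 5 of the 6 mice above every Con mouse and Ade + IMC 4 within the Con range. Its log2 fold change was 0.52 ± 0.16 (edgeR adjusted p = 0.0154), beside 0.93 in the Ade group. Adora2a ranged from 8.36 to 18.6 CPM (median 12.1), above all Con mice, with a log2 fold change of 1.504 ± 0.27 (edgeR adjusted p = 0.000440), beside 1.19 in the Ade group.

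Entpd1 ranged from 31.5 to 82.9 CPM (median 49.8), with a log2 fold change of 1.31 ± 0.23 (edgeR adjusted p = 0.000292), beside 1.36 in the Ade group. Entpd5 ranged from 235 to 405 CPM (median 299), below all Con mice, with a log2 fold change of -1.22 ± 0.13 (edgeR adjusted p = 9.02e-06), beside -1.43. Nt5e ranged from 37.4 to 59.4 CPM (median 45.6), and 5 of the 6 mice were below every Con mouse. Its log2 fold change was -0.76 ± 0.15 (edgeR adjusted p = 0.000832), beside -0.41 in the Ade group. Enpp1 (-0.41, edgeR adjusted p = 0.00833) and P2rx4 (0.35, edgeR adjusted p = 0.00841) overlapped the Con range in 1 mouse each. Within the sets of mouse numbers, P2rx4 was higher in 2 and lower by 0.06 on the log2 scale in the third, which holds 1 Con mouse. Slc29a1 passed with a log2 fold change of 0.29 ± 0.12 (edgeR adjusted p = 0.0513), and no longer did without Con 2, Con 3 or Con 4 (0.24 to 0.26, adjusted p = 0.109 to 0.128). Adora1 did not pass (0.55 ± 0.41, edgeR adjusted p = 0.267), except without Con 2 (0.87, adjusted p = 0.0960), and was 0.32 without Con 5 (adjusted p = 0.489) and 0.35 without Con 4 (adjusted p = 0.490).

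**Figure D4:**
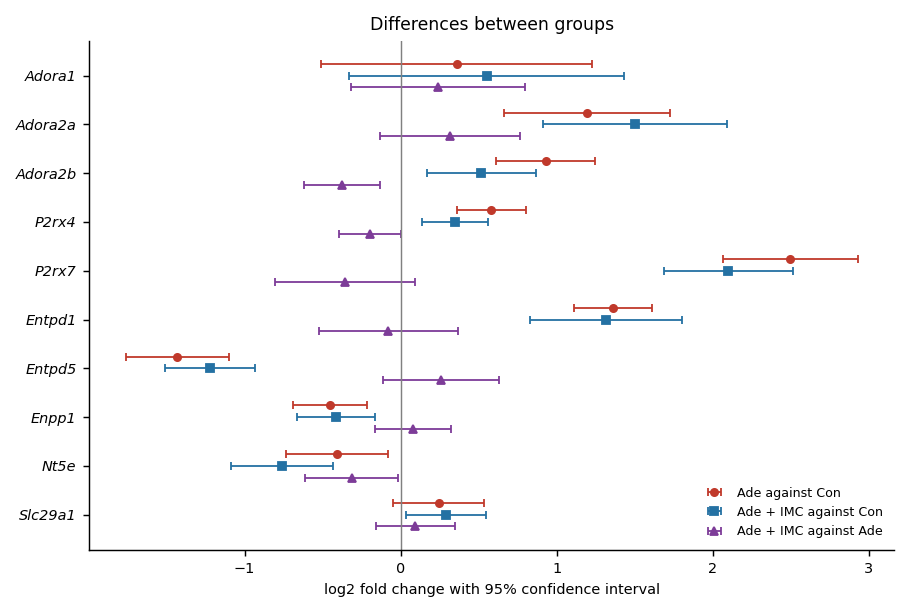
Log2 fold changes (horizontal axis) with their 95% confidence intervals as whiskers for the 10 genes, in the Ade group against the Con group (circles, edgeR), the Ade + IMC group against the Con group (squares, edgeR) and the Ade + IMC group against the Ade group (triangles, limma, log2 of the normalized count plus 1). P2rx7 reaches 2.50 and 2.10 against the Con group and Entpd5 reaches -1.43 and -1.22, while the triangles lie between -0.37 and 0.32.

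The other genes of the pathway were counted from a list of 46 symbols, of which 42 were among the genes measured in all mice. In the Ade group, 36 were tested by edgeR and 14 were higher, 14 lower and 8 did not pass, beside 35.1% of all genes higher and 32.2% lower, with a median log2 fold change of -0.01 (median absolute value 0.79, beside 0.42 over all genes). Of the P2Y receptors, 4 of the 6 tested were higher and 1 was lower. P2ry6, a UDP receptor, was at 3.94 to 5.49 CPM in the Con mice and 23.3 to 38.4 CPM in the Ade mice, without overlap (log2 fold change 2.74 ± 0.18, edgeR adjusted p = 4.84e-08). P2ry13, an ADP receptor of myeloid cells, was at 0 to 0.909 CPM in the Con mice and 3.05 to 10.4 CPM in the Ade mice (log2 fold change 3.51 ± 0.51, edgeR adjusted p = 6.06e-05). P2ry12, the ADP receptor of platelets and microglia, was at 0 to 1.16 CPM and 1.62 to 5.01 CPM (log2 fold change 2.55 ± 0.50, edgeR adjusted p = 0.000601). Both were near the limit of 3 counts in the Con mice, and their standard errors are the largest of the genes named here.

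Panx1, the channel through which cells release ATP, was at 1.30 to 1.96 CPM in the Con mice and 9.74 to 13.3 CPM in the Ade mice, without overlap (log2 fold change 2.83 ± 0.16, edgeR adjusted p = 1.94e-08). Of the nucleotidases and phosphatases, 3 of 13 tested were higher and 6 lower, beside 35.1% of all genes higher and 32.2% lower. Among these, tissue-nonspecific alkaline phosphatase (Alpl), which can also make adenosine from AMP, was at 517.5 to 669.0 CPM in the Con mice and 259 to 336 CPM in the Ade mice (log2 fold change -0.96 ± 0.11, edgeR adjusted p = 9.58e-06). Of the 4 genes listed for adenosine clearance, 1 was higher (Ada) and 3 were lower, beside the same shares of all genes. Adenosine kinase (Adk), which phosphorylates adenosine to AMP, was at 135 to 163 CPM in the Con mice and 45.9 to 77.8 CPM in the Ade mice (log2 fold change -1.31 ± 0.12, edgeR adjusted p = 9.97e-07). Adenosine deaminase (Ada), which converts adenosine to inosine, was at 1.51 to 4.44 CPM and 3.81 to 7.69 CPM, with overlapping ranges (log2 fold change 1.06 ± 0.28, edgeR adjusted p = 0.00489). Of the 4 listed nucleoside transporters tested, 1 was higher and 2 were lower, beside the same shares. The higher one, the concentrative transporter Slc28a2, rose from 0.578 to 1.83 CPM in the Con mice to 1.82 to 9.36 CPM in the Ade mice, with ranges that overlapped slightly (log2 fold change 2.14 ± 0.45, edgeR adjusted p = 0.00111).

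Between the Ade + IMC and Ade groups, 0 of the 35 listed genes tested passed in limma, and 1 was higher and 1 lower at an unadjusted p below 0.05. Alpl was the lower one (log2 difference -0.34, limma adjusted p = 0.711). Against the Con group, 13 of 36 were higher and 14 lower in the Ade + IMC mice by edgeR, beside 30.9% and 32.3% of all genes. Without Ade + IMC 4 only 34 of the listed genes were tested, and 10 were higher and 13 lower.

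**Figure D5:**
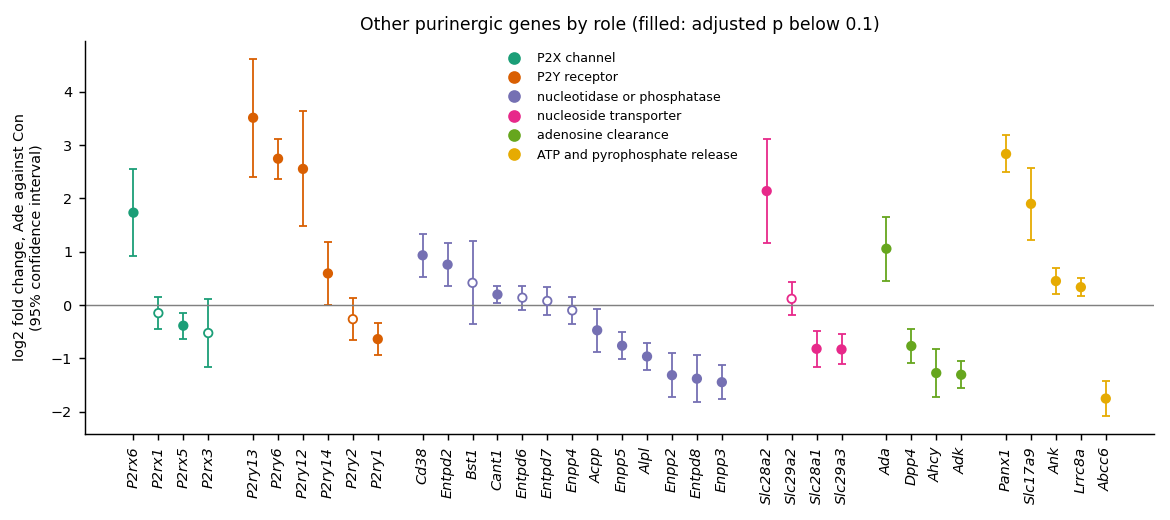
Log2 fold changes of the Ade group against the Con group (vertical axis, edgeR) with 95% confidence intervals as whiskers for the 36 listed genes tested, grouped and coloured by role, with filled points for an adjusted p below 0.1. P2ry13 (3.51), Panx1 (2.83) and P2ry6 (2.74) are at the top, and 14 genes are filled above and 14 below 0.

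The genes most alike P2rx7 and Entpd5 were ranked by Pearson's correlation of log2 CPM over the 17 mice, after each group's mean was subtracted, among 14271 genes. Those most like P2rx7 were Vsir (0.93), Fxyd5 (0.92) and Nckap1l (0.92). Among those most like Entpd5 were Chpt1 (0.95) and Ghr (0.94). These are the highest of many values from the same libraries and are given as a description.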

How the data were processed

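Kidney RNA-seq of 17 mice was analysed. Of 21 labelled mice, 4 (Con + IMC) were not analysed here. RNA of flash-frozen kidneys was made into TruSeq libraries and sequenced in 50-base single reads, which the authors, per their methods, mapped to mm10 with STAR 2.3.1. The submitters' processing notes name Trimmomatic 0.39, FastQC 0.11.8, Bowtie2 2.2.5, HTSeq 0.9.1 and DESeq2. The annotation, and whether counting used strand, are not given in the sources used here, so genes that share exonic bases with others are uncertain. For the Con and Ade mice the authors deposited raw gene counts. The signal deposited for the Ade and Ade + IMC groups is a gene's count over a library size factor by the median of ratios of DESeq2. They also deposited their own DESeq2 comparison (fold changes, p-values and gene names), of which the names alone were used. Of the values above 0 in the normalized table, 100% were whole multiples of 1 read within 0.001 of a read, and the reads recovered for the Ade mice differed from their raw counts in 0 values. The tables share 20634 genes, with 653 in the normalized and 370 in the raw table alone.

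Groups were taken from the treatment labels, and replicate numbers follow the order of the samples. No pair of libraries within a group agreed within counting noise (the lowest chi-square over its degrees of freedom was 4.21). Counts were tested with edgeR 4.0.16 (quasi-likelihood test, TMM normalization, its own filter on low counts, R 4.3.3), and normalized counts with limma 3.58.1, using its trend option, after a log2 transform with a pseudocount of 1, for genes averaging at least 10 normalized counts. A fold change on this scale understates that of low genes. P-values were adjusted over all genes tested by the Benjamini-Hochberg method, and genes were called below 0.1, as in the study's methods. The scripts were tested on simulated data. Positions and exonic lengths are those of GRCm38. The members and lists were chosen with earlier results of these data known. Named beside the 10 genes were listed purinergic genes with an absolute log2 fold change of at least 2 in the Ade group against the Con group, with Adora3, Ada, Adk and Alpl whatever their values, the 3 genes most alike the member with the largest rise and fall, and Havcr1. The result of 1 gene that this rule names is not reported here. Alternatives changed the tool (DESeq2 1.42.0), scaling, filter, threshold, pseudocount, block and mice included.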

Additional observations from a re-analysis of the deposited data

Results flagged for a closer look

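Among 30 groups of values, of 10 genes in 3 groups of mice, 3 held 1 mouse whose distance from the nearest other was large against the range of its group, and chance gives this in about 1 group in 20. Entpd1 was at 16.6 CPM in Con 5, with the other Con mice at 20.04 to 21.4 CPM. Slc29a1 was at 58.7 CPM in the same mouse, with the other Con mice at 38.8 to 43.6 CPM. Nt5e was at 79.7 CPM in Ade 1, with the other Ade mice at 47.0 to 58.0 CPM.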

How the results depend on the processing

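The count of the 10 genes that passed was 8 to 9 for the Ade group against the Con group, 8 to 9 for the Ade + IMC group against the Con group and 0 for the Ade + IMC group against the Ade group under every alternative run, including each mouse left out in turn. The additional call in the first was Slc29a1, with upper-quartile scaling (log2 fold change 0.30, edgeR adjusted p = 0.0678) and without Con 5 or Ade 1. With a threshold of 0.05, Slc29a1 no longer passed in the Ade + IMC group against the Con group. One direction changed. Entpd1 in the Ade + IMC group against the Ade group went from -0.08 to a range of -0.24 to 0.046 as single mice were left out, being above 0 without Ade + IMC replicate 3 (0.028) or 6 (0.046). Over all genes, IMC against adenine alone gave 0 calls by limma and by edgeR on recovered reads, 22 higher and 16 lower by DESeq2, and 73 higher and 60 lower by limma with the leading digit of the mouse numbers as a block, where Adora2b had an adjusted p of 0.216. Its adjusted p was 0.216 to 0.996 over all alternatives. Depth limits the low genes most, with Adora2b at 24 to 65 counts a mouse.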
